A study of Mus musculus with 28 samples.

Results

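S100a8 and S100a9 encode the 2 subunits of calprotectin. They were measured by 3 assays of the 648 on an inflammation panel, which covers 584 genes: 2 assays of S100a8, with amplicons of 131 and 63 bases, and 1 assay of S100a9, with an amplicon of 162 bases. Every assay carrying either symbol was taken, so no member was left out. The genes were chosen by their measured values, the tumor-bearing minus healthy differences at day 14 and over the mean of the 3 days. Those differences are given below as descriptions without a test.

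RNA came from microporous polycaprolactone (PCL) scaffolds, implants that fill with host cells, in 28 female BALB/c mice. All mice carried a scaffold. The tumor-bearing mice had been inoculated with 4T1-luc2-tdTomato cells, a reporter-carrying derivative of the 4T1 mouse mammary carcinoma line. Scaffolds were removed from 3 tumor-bearing and 3 healthy mice at day 7, from 8 and 8 at day 14, and from 3 and 3 at day 21, counted from inoculation. The labels list the tumor line for the healthy mice too, so condition was read from the title and from the recorded state at analysis. The age of the mice is not given in the sources used here. The tissue is a bulk infiltrate, in which fewer cells of a type and less RNA per cell cannot be told apart. One mouse per sample is taken from the titles, and the p-values below measure the spread between these samples.

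Calprotectin is a heterodimer of calcium-binding proteins that fills the cytoplasm of neutrophils and is also made by monocytes. Released from activated or dying cells, it withholds zinc and manganese from microbes and acts on Toll-like receptor 4 and the receptor for advanced glycation end products. In tumor-bearing animals the pair is widely used as a mark of expanded immature myeloid cells, and transcription of both genes in myeloid cells involves CCAAT/enhancer binding proteins (C/EBP).

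The genes are neighbours on mouse chromosome 3 (build GRCm38.p6). S100a8 spans bases 90669071 to 90670034 on the plus strand and S100a9 spans 90692630 to 90695721 on the minus strand. They are 22595 bases apart, and the RefSeq table lists 0 genes wholly between them. Their promoters are shown because the transcripts moved together from mouse to mouse. Each line is the 250 bases before the RefSeq start, 5′ to 3′ on the gene's own strand, chr3:90668821-90669070 (plus) for S100a8 and chr3:90695722-90695971 (minus) for S100a9. Capitals mark matches to TTNNGNAA, a gapped C/EBP motif searched on both strands (TTNCNNAA on the other strand), or to TATAAA, the TATA box, searched on the gene's strand.
S100a8: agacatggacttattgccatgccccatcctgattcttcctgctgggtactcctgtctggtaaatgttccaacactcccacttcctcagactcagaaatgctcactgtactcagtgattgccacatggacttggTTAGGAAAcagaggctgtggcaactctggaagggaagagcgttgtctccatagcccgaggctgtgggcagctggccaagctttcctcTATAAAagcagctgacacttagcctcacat
S100a9: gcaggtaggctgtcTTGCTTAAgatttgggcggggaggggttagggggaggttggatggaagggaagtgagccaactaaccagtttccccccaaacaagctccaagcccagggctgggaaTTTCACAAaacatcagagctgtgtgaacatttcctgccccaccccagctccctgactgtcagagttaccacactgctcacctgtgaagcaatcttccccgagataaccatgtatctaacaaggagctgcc

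In S100a8 the C/EBP match lies 117 to 110 bases before the start and the TATA match 30 to 25 bases before it. In S100a9 there are 2 C/EBP matches, both read on the opposite strand, at 236 to 229 and at 130 to 123 bases before the start. TATAAA is not among these letters of S100a9. A C/EBP match is common, being present in 36.8% of the 32851 RefSeq promoter windows of this length, while TATAAA is present in 7.59%. The capitals describe the sequence and no binding was measured.

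Values are log2 of the authors' normalized ratio, on which 1 unit is a doubling relative to 5 reference transcripts. The ratio was rebuilt here from the raw quantification cycles (Cq, the cycle at which a reaction crosses its threshold): it equals the mean Cq of 5 of the 16 reference assays on the panel minus the Cq of the assay, within 3e-05 cycles. The group mean of that reference Cq lay between 18.22 and 18.83 cycles. The members amplified early, with Cq of 16.10 to 22.97 against a median of 21.80 over all reactions. Of their 84 reactions, 83 gave a value. The missing one is the 131-base S100a8 assay in day 14 healthy replicate 14, and fits of that assay leave this mouse out, except the alternative that sets missing reactions to the largest Cq.

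At day 7 no clear difference between the conditions was seen, with 3 mice in each. The 63-base S100a8 assay read 0.00, 0.58 and 0.28 in tumor-bearing mice, against -0.25, 0.46 and -0.77 in healthy mice. The 131-base assay read -0.83, -0.52 and -0.45 in tumor-bearing mice, against -1.22, -0.53 and -1.38 in healthy mice. S100a9 read -0.56, 0.10 and -0.04 in tumor-bearing mice, against -0.80, 0.00 and -1.02 in healthy mice. The highest healthy mouse lay within the tumor-bearing range in each assay, so the groups overlapped. Of 520 assays measured in all mice of that day, 24 (4.62%) kept the conditions apart with tumor-bearing higher.

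At day 14 most tumor-bearing mice lay above the healthy ones, and both conditions were widely spread. The 131-base S100a8 assay ran from -2.24 to 1.21 in tumor-bearing mice (median -0.72, n = 8) and from -4.22 to -1.15 in healthy mice (median -2.85, n = 7). The 63-base assay ran from -1.16 to 2.26 in tumor-bearing mice (median 0.02) and from -2.68 to -0.06 in healthy mice (median -1.25, n = 8 each). S100a9 ran from -1.31 to 1.34 in tumor-bearing mice (median 0.21) and from -3.24 to -0.72 in healthy mice (median -2.01, n = 8 each). The groups overlapped: 5 of 8 tumor-bearing mice exceeded every healthy mouse in each S100a8 assay, and 7 of 8 did so for S100a9. Of 355 assays measured in all 16 mice of that day, 0 (0%) kept the conditions fully apart with tumor-bearing higher.

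At day 21 the tumor-bearing mice had the highest group means of the study, though day 14 tumor-bearing replicates 20 and 21 exceeded the lowest of them in every assay. The 63-base S100a8 assay read 2.34, 1.74 and 2.66 in tumor-bearing mice, against 0.57, 0.45 and 0.89 in healthy mice. The 131-base assay read 1.83, 0.90 and 1.80 in tumor-bearing mice, against -0.63, -0.34 and 0.23 in healthy mice. S100a9 read 1.77, 1.11 and 2.05 in tumor-bearing mice, against -0.29, -0.51 and 0.64 in healthy mice. Every tumor-bearing mouse lay above every healthy mouse in all 3 assays, which was also so for 46 of the 498 assays measured in all mice of that day (9.24%).

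**Figure D1:**
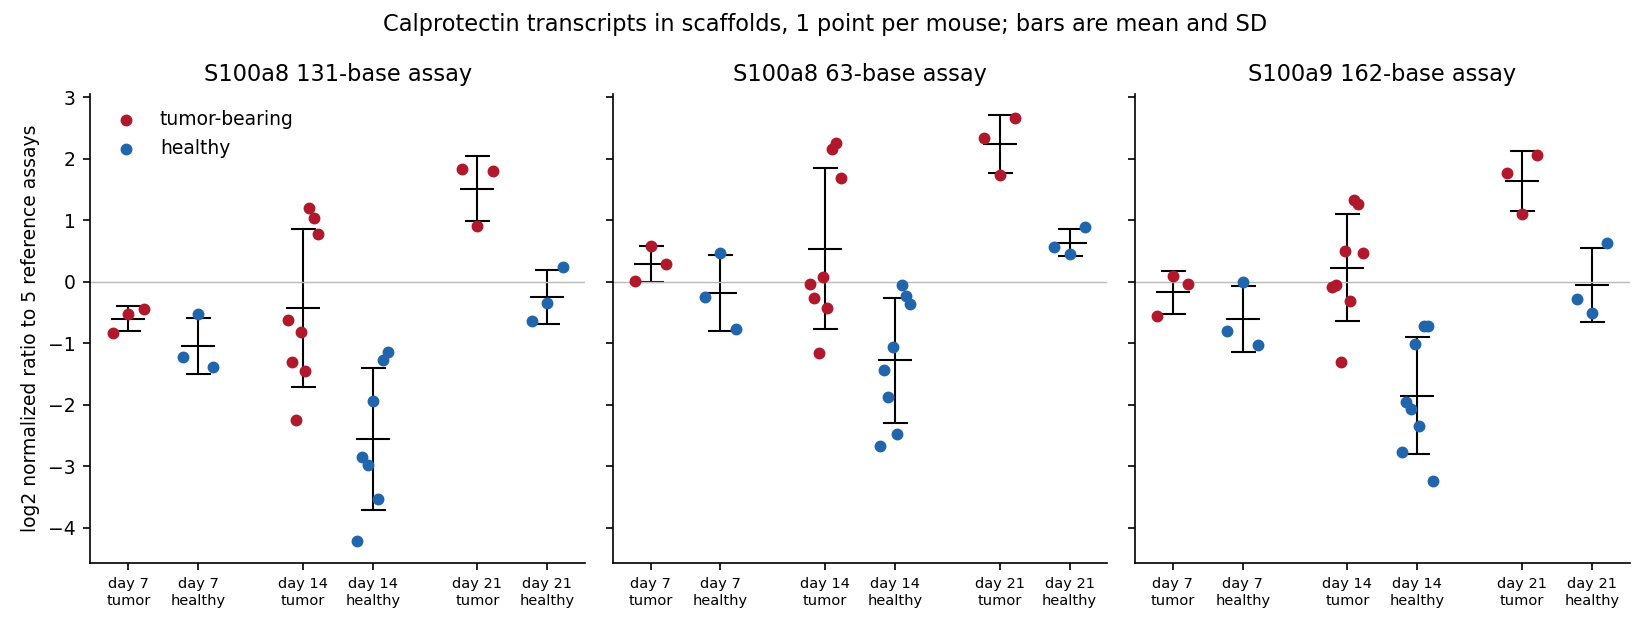
Log2 normalized ratio (vertical axis) of the 3 calprotectin assays in each mouse, by day, with tumor-bearing mice (red) left of healthy mice (blue); horizontal marks and bars are the mean and SD. The day 14 groups overlap in every assay, the day 21 groups do not, and the lowest mean in each plot is that of day 14 healthy mice.

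Ordered by group mean, S100a9 ran from -1.85 ± 0.95 in day 14 healthy mice through -0.61 ± 0.54 in day 7 healthy, -0.17 ± 0.35 in day 7 tumor-bearing, -0.05 ± 0.61 in day 21 healthy and 0.23 ± 0.87 in day 14 tumor-bearing to 1.64 ± 0.49 in day 21 tumor-bearing mice (SD, n = 3 or 8). Among the 4 groups in the middle, neighbours in this order differed by less than the larger of their SDs. The lowest and the highest group differed from their neighbour by more than that. By the 63-base assay, day 21 tumor-bearing mice averaged 2.25 ± 0.47, day 21 healthy mice 0.64 ± 0.23 and day 14 tumor-bearing mice 0.54 ± 1.30, against -1.27 ± 1.02 in day 14 healthy mice. In all 3 assays the day 14 tumor-bearing and day 21 healthy means differed by less than the SD of the day 14 mice.

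The tumor-bearing minus healthy difference at day 14 was 2.17 ± 0.50 log2 units for the 131-base S100a8 assay, a 4.49-fold higher ratio (± here and below is the standard error of the limma fit). It was 1.85 ± 0.46 for the 63-base assay, or 3.62-fold, and 2.12 ± 0.38 for S100a9, or 4.34-fold. Over the mean of the 3 days the differences were 1.46 ± 0.39, 1.31 ± 0.37 and 1.42 ± 0.31 for the 131-base, 63-base and S100a9 assays. These contrasts led to the choice of the genes and are not tests. In them, 14 of 588 assays (2.38%) at day 14 and 14 of 559 (2.5%) for the mean passed an adjusted p of 0.05 in either direction. The authors' deposited table gives folds of 4.39, 3.52 and 4.23 at day 14 for the same 3 assays in the same order. They equal the plain differences of group means.

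At days 7 and 21 no calprotectin assay passed the limma test. Both days are part of the mean of the 3 days, so these differences are not independent of the choice of the genes. The day 7 differences were 0.44 ± 0.75, 0.48 ± 0.72 and 0.44 ± 0.59 for the 131-base, 63-base and S100a9 assays (adjusted p = 0.997 for each). Their 95% intervals ran from -1.11 to 1.99, from -1.01 to 1.96 and from -0.78 to 1.67. Those of both S100a8 assays also hold their day 21 estimates given below. The background at that day was 0 of 565 assays called (0%), and 13 had an unadjusted p under 0.05. The day 21 difference was 1.70 ± 0.59 for S100a9, or 3.24-fold with a 95% interval of 1.38 to 7.58 (limma adjusted p = 0.263). It was 1.76 ± 0.75 for the 131-base S100a8 assay (adjusted p = 0.459) and 1.61 ± 0.72 for the 63-base assay (adjusted p = 0.492). At day 21, 7 of 573 assays (1.22%) passed. With 3 mice a condition the estimates at day 21 were near the size of those at day 14, and their intervals were wide.

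The change of the tumor-bearing minus healthy difference between days was estimated by interaction contrasts. Those with day 14 contain the difference by which the genes were chosen and are given as descriptions. From day 7 to day 14 the estimates were 1.73 ± 0.90, 1.38 ± 0.86 and 1.68 ± 0.71 log2 units for the 131-base, 63-base and S100a9 assays. From day 14 to day 21 the estimates were -0.41 ± 0.90, -0.25 ± 0.86 and -0.42 ± 0.71. From day 7 to day 21 they were 1.32 ± 1.06, 1.13 ± 1.02 and 1.26 ± 0.84 (limma adjusted p = 1 for each), where 0 of 560 assays (0%) passed and 22 had an unadjusted p under 0.05.

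The samples were run on 7 physical OpenArray panels, here called A to G. Panels A, B, C, E and F carried both conditions, which gives 10 tumor-bearing and healthy mice matched by day and panel, while D held 4 day 14 healthy mice only and G held 4 day 14 tumor-bearing mice only. In the matched comparison the tumor-bearing mouse was higher in 10 of 10 pairs for S100a9 and for the 63-base S100a8 assay, and in 9 of 9 for the 131-base assay. Of those 9, the day 7 pair on panel B was level to 2 decimals, at -0.521 against -0.526. At day 14 the pairs were close to each other: the 63-base differences were 2.06, 2.22, 2.49 and 2.05 on panels A, B, E and F, and the 131-base differences were 2.07, 2.47 and 2.18 on A, B and E. The S100a9 differences were 2.03, 2.06 and 1.98 on A, B and E, and 3.71 on F. The pair on F holds healthy replicate 14, described further below.

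At day 7 the pairs differed by 0.00 to 0.93 with the 131-base assay, by 0.11 to 1.06 with the 63-base assay and by 0.10 to 0.98 for S100a9. At day 21 they differed by 1.24 to 2.46 with the 131-base assay, by 1.28 to 1.77 with the 63-base assay and by 1.42 to 2.06 for S100a9. Of the 319 assays measured in every pair, 4 (1.25%) were higher in tumor-bearing mice in all 10. The other assays were those of Fpr1, a formyl peptide receptor of neutrophils and monocytes, and of Irak3, an inhibitory kinase of Toll-like receptor signalling. Their mean pair differences were 0.95 and 0.14, against 1.51 for the 63-base S100a8 assay and 1.62 for S100a9. All of these pairs entered the day 14 difference or the mean of the 3 days, which led to the choice of the genes.

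**Figure D2:**
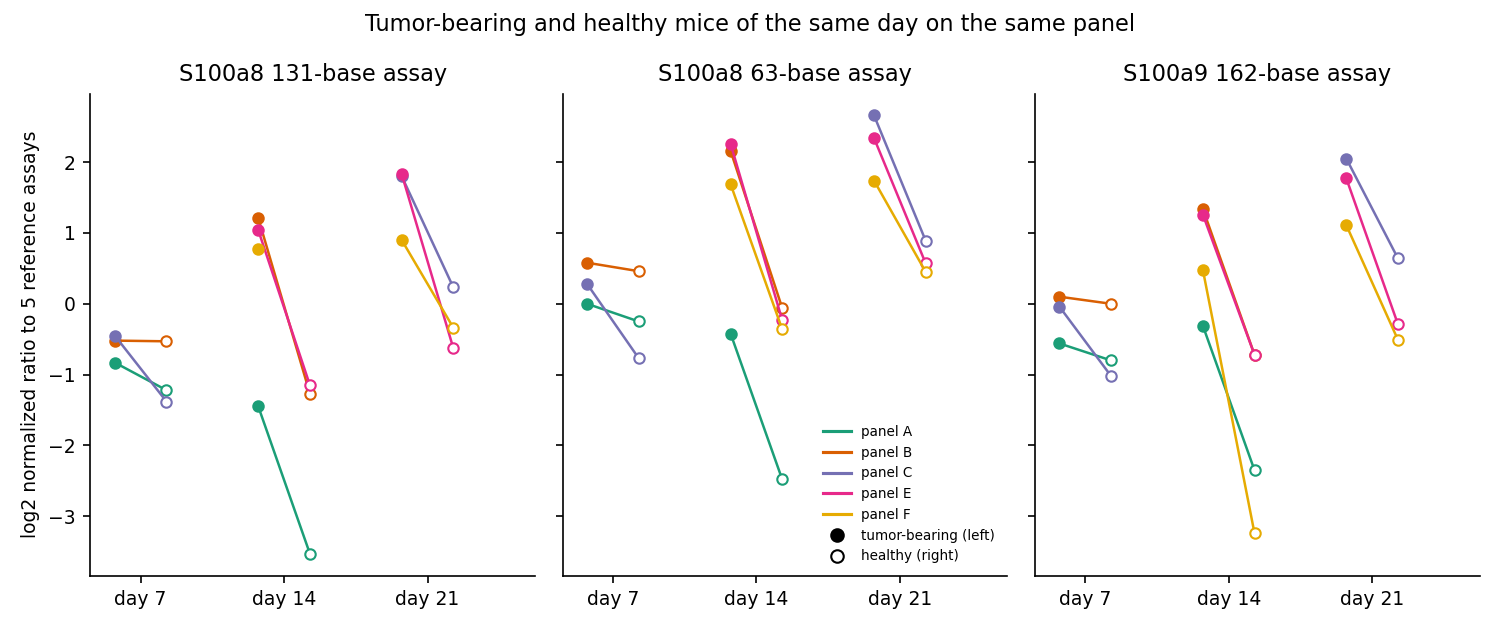
Log2 normalized ratio (vertical axis) of tumor-bearing mice (filled, left) and healthy mice (open, right) of the same day, joined where both were run on the same panel (colour). All lines fall to the right or are level, and the day 14 lines on panels A, B and E run nearly parallel although the panels stand at different heights.

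At day 14 panel A stood below panels B and E in both conditions, with 1 mouse per condition on each. By the 63-base assay, panel A gave -0.42 in the tumor-bearing and -2.48 in the healthy mouse, whereas panel B gave 2.16 and -0.06 and panel E gave 2.26 and -0.23. The 4 tumor-bearing mice of panel G lay between -1.16 and 0.08, and the 4 healthy mice of panel D between -2.68 and -1.06. Mice of 1 panel thus also differed widely, and for S100a9 they ran from -1.31 to 0.51 on G and from -2.76 to -1.01 on D. Panels D and G hold 1 condition each, so their panel and condition cannot be told apart. With panel as a fixed block the day 14 difference was 2.35 ± 0.52, 2.21 ± 0.43 and 2.45 ± 0.43 for the 131-base, 63-base and S100a9 assays. That the panel itself or another property of the mice run on it sets these heights was not tested.

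Between days, healthy mice had their lowest means at day 14. The day 14 values entered the choice of the genes, so the steps into and out of that day are descriptions, in both conditions. From day 7 to day 14 the healthy differences were -1.47 ± 0.65, -1.05 ± 0.61 and -1.20 ± 0.51 for the 131-base, 63-base and S100a9 assays. From day 14 to day 21 they were 2.23 ± 0.65, 1.83 ± 0.61 and 1.79 ± 0.51. Without panels D and G, which hold 1 condition each, that step was 1.71 ± 0.64, 1.40 ± 0.59 and 1.70 ± 0.54. From day 7 to day 21 the healthy differences were 0.76 ± 0.76, 0.78 ± 0.73 and 0.58 ± 0.60 (limma adjusted p = 0.78, 0.752 and 0.788), where 0 of 570 assays (0%) passed and 58 had an unadjusted p under 0.05.

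Within a panel the changes between days were often smaller. On panel E, the healthy mouse of day 21 exceeded that of day 14 by 0.52, 0.80 and 0.43 in the 131-base, 63-base and S100a9 assays, and on panel F by 0.82 in the 63-base assay and 2.73 for S100a9. From day 7 to day 14 the healthy mice on panel A differed by -2.31, -2.23 and -1.54, and those on panel B by -0.74, -0.52 and -0.72, in the same order of assays. In tumor-bearing mice, day 21 exceeded day 14 by 1.82 ± 0.64, 1.58 ± 0.61 and 1.36 ± 0.51 over all panels. Within panels E and F the same step was 0.79 and 0.12 in the 131-base assay, 0.07 and 0.05 in the 63-base assay, and 0.51 and 0.63 for S100a9.

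Tumor-bearing mice at day 21 exceeded those at day 7 by 2.07 ± 0.76, 1.91 ± 0.73 and 1.84 ± 0.60 (limma adjusted p = 0.329, 0.35 and 0.215), where 3 of 567 assays (0.529%) passed. The step from day 7 to day 14 was 0.26 ± 0.64, 0.33 ± 0.61 and 0.47 ± 0.51. It went in opposite directions on the panels that held both days: by the 131-base assay it was -0.62 on panel A and 1.73 on panel B. The steps between days thus differed from panel to panel. Within a panel the comparison of conditions kept its direction or was level in every pair. The genes were chosen by that comparison, so its direction is no independent evidence.

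The 2 S100a8 assays gave the same picture at different heights. The 63-base assay read 0.96 ± 0.24 log2 units above the 131-base assay (SD, n = 27, range 0.51 to 1.55). Such an offset between primer sets has no meaning for the amount of RNA. No difference of this offset between tumor-bearing and healthy mice passed: the differences were 0.04 at day 7, -0.19 at day 14 and -0.15 at day 21 (exact two-sided permutation p = 1, 0.124 and 0.6; adjusted p = 1, 0.395 and 0.753). At days 7 and 21, with 3 mice against 3, no p below 0.1 can be reached. After subtraction of the group means the assays correlated with r = 0.98 and rho = 0.96 over 27 mice (permutation p = 1e-05 for each, the smallest 100000 resamples can give; adjusted p = 2.62e-05; r = 0.97 without the 2 mice farthest from the median).

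The ratio of the genes, taken as the mean of the 2 S100a8 assays minus S100a9 in the same mouse, does not depend on the reference transcripts. Its level has no absolute meaning, since the assays amplify with different efficiency, but it can be compared between mice. It averaged 0.01 ± 0.12 in tumor-bearing and 0.00 ± 0.06 in healthy mice at day 7. At day 14 it averaged -0.17 ± 0.60 (n = 8) in tumor-bearing and -0.33 ± 0.31 (n = 7) in healthy mice, and at day 21 it averaged 0.24 ± 0.07 and 0.25 ± 0.32 (SD, n = 3 where not stated). The groups overlapped on every day.

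The tumor-bearing minus healthy difference of the ratio was 0.02, 0.16 and -0.01 log2 units at days 7, 14 and 21, and 0.05 for the mean of the days (exact two-sided permutation p = 0.9, 0.542, 1 and 0.606; adjusted p = 1, 0.753, 1 and 0.753). In 9 mice pairs matched by day and panel it was 0.08 ± 0.21 (SD), from -0.35 to 0.36. Day 14 healthy replicate 14 lacks 1 S100a8 assay, so this mouse and its pair are left out of these values. By the 63-base assay over S100a9, which keeps it, 10 pairs gave -0.11 ± 0.60 (SD), from -1.66 to 0.52. At day 14 that value averaged 0.31 ± 0.61 in tumor-bearing and 0.58 ± 0.97 in healthy mice (SD, n = 8 each). The direction at day 14 thus depended on this mouse or on the assay used. Between days the ratio was 0.41 higher at day 21 than at day 14 in tumor-bearing mice (exact permutation p = 0.297, adjusted p = 0.594) and 0.58 higher in healthy mice (exact permutation p = 0.0417, adjusted p = 0.395). Without panels D and G these steps were 0.02 in tumor-bearing and 0.44 in healthy mice (adjusted p = 1 and 0.6). None of the 16 permutation tests in this family passed after adjustment.

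The ratio varied from panel to panel, but panels also differed in the days they held, and no test of panel was made. It averaged -0.56 on panel G, -0.43 on D, -0.27 on A, 0.00 on C, 0.08 on B, 0.25 on E and 0.51 on F (n = 4 mice each, 3 on F). On panel A, the day 7 mice stood at 0.15 (tumor-bearing) and 0.06 (healthy), and the day 14 mice at -0.63 (tumor-bearing) and -0.66 (healthy). Mice of 1 panel could thus differ by day while the conditions on it stood together.

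**Figure D3:**
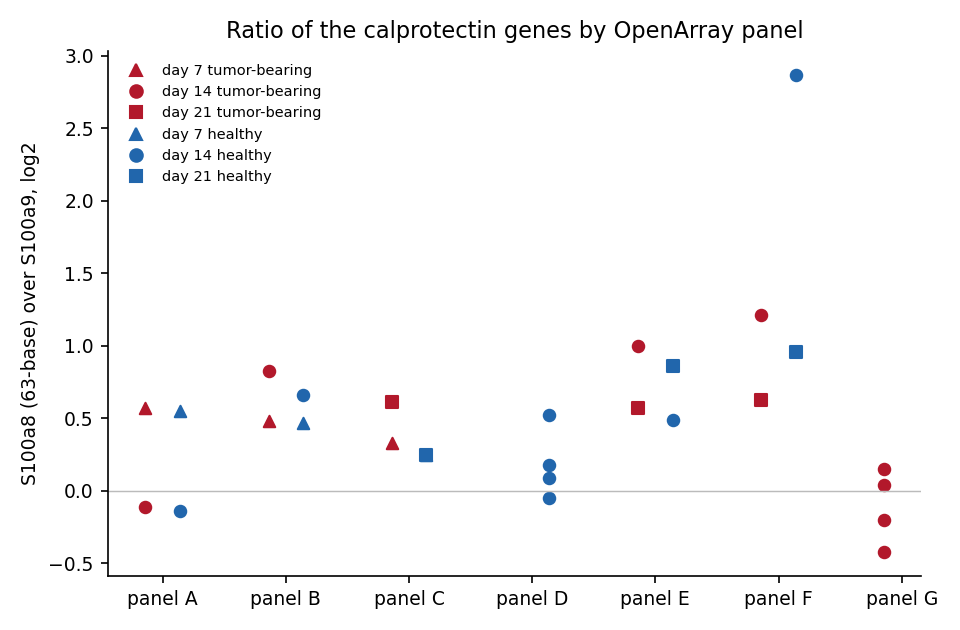
Log2 of the 63-base S100a8 assay over S100a9 (vertical axis) in each of the 28 mice by physical panel, with tumor-bearing mice (red) left of healthy mice (blue) and the day shown by the symbol. On panels with both conditions red and blue points of 1 day differ by up to 0.52, except on panel F, where day 14 healthy replicate 14 stands alone at 2.87.

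A single mouse stood apart. In day 14 healthy replicate 14, S100a9 was at -3.24, the lowest of its group, while the 63-base S100a8 assay was at -0.36, among the highest, and the 131-base assay gave no value. Its 63-base S100a8 over S100a9 value was 2.87, against -0.14 to 0.66 in the other 7 healthy mice of that day. Without this mouse's reactions the day 14 difference was 1.90 ± 0.37 for S100a9 and 1.99 ± 0.48 for the 63-base assay. Camp, a granule gene of neutrophils, read -6.45 in this mouse, against -11.97 to -9.10 in the other healthy mice of that day with a value. Trem1, Fpr1 and Saa3, described below, lay within the range of those mice. Which of the 2 calprotectin assays misread the sample, if either did, was not tested.

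Across mice, more of 1 transcript went with more of the other beyond the group means. With group means subtracted, S100a8 (mean of 2 assays) and S100a9 correlated with Pearson r = 0.93 and Spearman rho = 0.91 over 27 mice. The permutation p was 1e-05 for each, the smallest 100000 resamples can give. The adjusted permutation p was 2.62e-05, over the r and rho of 21 correlations together. Without the 2 mice farthest from the median r was 0.91. With panel means removed as well, r was 0.92 and rho 0.93 (n = 27, adjusted permutation p = 2.62e-05). Day 14 healthy replicate 14 lacks 1 S100a8 assay and is left out of these values. The 63-base assay alone keeps it, and with group means subtracted gave r = 0.74 and rho = 0.77 over all 28 mice. The adjusted permutation p was 7e-05 for r and 4.94e-05 for rho, and r was 0.66 without the 2 farthest. Without replicate 14 that assay gave r = 0.92. Single panels hold 4 mice, too few for a value of their own.

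Among day 14 healthy mice r was 0.98 and rho 0.96 (n = 7, exact permutation p = 0.000397 and 0.00278; r = 0.97 without the 2 farthest). With the 63-base assay, which includes replicate 14, r was 0.52 (n = 8, exact permutation p = 0.186), and 0.97 without that mouse (n = 7, exact permutation p = 0.000397). Among day 14 tumor-bearing mice r was 0.92 and rho 0.88 (n = 8, exact permutation p = 0.00057 and 0.00724; r = 0.81 without the 2 farthest). Their S100a8 levels fell into separate clusters, with panels B, E and F above A and G, whereas their S100a9 levels did not, at 0.48 for the mouse of panel F and 0.51 for the highest mouse of panel G. Within either S100a8 cluster there were too few mice for an r.

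**Figure D4:**
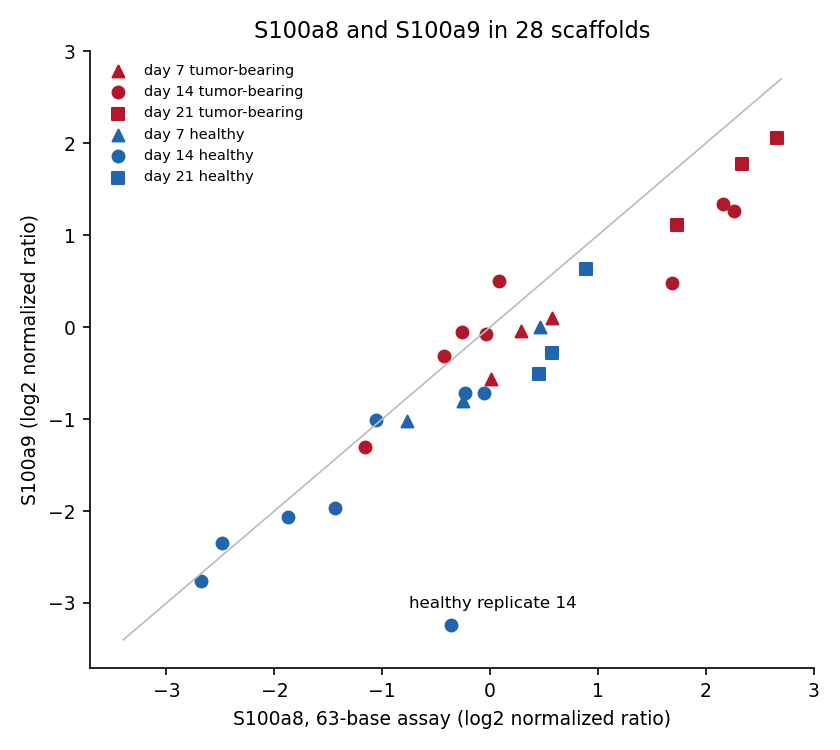
S100a9 (vertical axis) against the 63-base S100a8 assay (horizontal axis), both as log2 normalized ratio, in 28 mice; colour is the condition, the symbol is the day and the grey line marks equal readings. The points follow 1 diagonal band across days and conditions except healthy replicate 14, at -0.36 and -3.24.

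Other transcripts on the panel followed calprotectin from mouse to mouse. After subtraction of group means, the 8 assays of other genes with the highest Pearson r to the mean of the 3 calprotectin assays (28 mice, 310 assays with a value in every mouse, median r of all -0.01) were led by Trem1, a receptor that amplifies inflammatory signals in neutrophils and monocytes, at 0.85. Next came Prdx5, a peroxide-reducing enzyme, at 0.83, Saa3, an acute-phase serum amyloid made by macrophages and stromal cells, at 0.83, and the 63-base assay of Il1b, the inflammatory cytokine interleukin 1 beta, at 0.81. The current name of Chi3l3 is Chil3. This secreted relative of chitinases, made by myeloid cells, followed at 0.73, Ppia, a cyclophilin, at 0.71, Cd14, the lipopolysaccharide co-receptor, at 0.68, and Timm50, a part of the mitochondrial import machinery, at 0.68. All points share the same reference Cq and panels within a mouse, and these r are descriptions.

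With panel means removed too, Saa3 (0.84), Fpr1 (0.79), Trem1 (0.75) and the 63-base Il1b assay (0.72) led the list, and Ppia, Timm50, Cd14 and Chi3l3 were no longer among the first 8. Without subtraction of any mean, Fpr1 (0.85), Trem1 (0.85), Chi3l3 (0.76) and Myd88 (0.73), the adaptor of Toll-like receptors, came first. Tnfsf14, a cytokine of the tumor necrosis factor family, stood at 0.69, as did Prdx5 and Saa3, and Olr1, a receptor for oxidized lipoprotein, at 0.64.

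Most transcripts that tracked calprotectin between mice of a group showed smaller differences between conditions. At day 14, tumor-bearing minus healthy was 0.65 ± 0.52 for Saa3 (limma adjusted p = 0.68), 0.31 ± 0.36 for the 63-base Il1b assay (adjusted p = 0.766), 0.09 ± 0.17 for Prdx5 (adjusted p = 0.878) and 1.05 ± 0.40 for Trem1 (adjusted p = 0.24). At day 21 it was -0.45 ± 0.80 for Saa3, -0.65 ± 0.56 for Il1b and 0.12 ± 0.62 for Trem1 (adjusted p = 0.984, 0.883 and 0.995). Of the 8 genes, Chi3l3 passed, at day 21 with 3.17 ± 0.69 (adjusted p = 0.0135) and for the mean of the days with 1.72 ± 0.36 (adjusted p = 0.00559). Fpr1, which led the likeness without subtraction, rose by 1.40 ± 0.30 at day 14 (adjusted p = 0.0087). Whether these differences were smaller than those of calprotectin was not tested.

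Genes through which calprotectin acts did not pass in any contrast of conditions. Of 10 receptor and signalling genes on the panel, 0 rose and 0 fell at any day or over the mean. With 0% of all assays called at day 7, 2.38% at day 14, 1.22% at day 21 and 2.5% for the mean, that count is near the background. Tlr4, its Toll-like receptor, differed by 0.24 ± 0.11 at day 14 (limma adjusted p = 0.421) and Myd88 by 0.18 ± 0.09 (adjusted p = 0.437). The median of the 10 was 0.02 at day 14 and 0.05 at day 21, against -0.08 and 0.00 over all assays tested.

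Cytokines and factors known to induce the pair did not pass either. Of 16 such genes, measured by 22 assays, 0 passed in any contrast, a count near the same background. Their median was -0.16 at day 14 and -0.45 at day 21, against -0.08 and 0.00 over all assays tested. The 2 assays of Csf3, the granulocyte colony-stimulating factor, disagreed at day 14, with 0.99 ± 0.61 by the 63-base amplicon and -0.90 ± 0.57 by the 106-base one (adjusted p = 0.614 and 0.616). The 100-base Ifng assay, for interferon gamma, gave -3.25 ± 0.95 at day 7 and the 63-base one -1.20 ± 0.88 (adjusted p = 0.689 and 0.997). Tgfb1, transforming growth factor beta 1, gave -0.54 ± 0.26 at day 21 (adjusted p = 0.523).

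S100b, a calcium-binding protein best known from glia, was the 1 other S100 gene on the panel and did not pass. It differed by -1.0 ± 0.33 at day 14 (limma adjusted p = 0.161) and by 0.27 ± 0.52 at day 21 (adjusted p = 0.984).

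Markers of neutrophils moved with calprotectin. Of the 11 tested at day 14, 7 rose and 0 fell (median 1.53), and of the 12 at day 21, 6 rose and 0 fell (median 2.23). The overall share called higher was 1.7% at day 14 and 1.05% at day 21. Granule genes had the largest values among them: Camp, a cathelicidin, rose by 4.81 ± 0.73 and Prtn3, proteinase 3, by 4.39 ± 0.80 at day 14 (limma adjusted p = 0.000408 and 0.00566), while Il8rb (now Cxcr2), a chemokine receptor of mature neutrophils, rose by 1.39 ± 0.26 (adjusted p = 0.00331). The 10 assays called higher at day 14 were the 7 markers that rose and the 3 calprotectin assays. At day 21 the 6 called higher were the 6 markers that rose. The shares above are thus made of the list itself and are no separate background. An assay could enter through a single well-measured group, so a sparse marker could enter where it is high. Prtn3, for example, had a value in 20 of the 28 mice. The list was written with earlier results of these data known, so its counts are descriptions without a test. It is not independent evidence of its direction.

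The summed level of 8 neutrophil markers was lowest in day 14 healthy mice and highest in day 21 tumor-bearing mice. The 8 are a subset of the 12 in that list and are rich in its rising members. At day 14, 7 of 7 tested rose, against 7 of 11 in the whole list, and at day 21, 5 of 8 against 6 of 12. This subset too was written with earlier results known, so the order of the groups is no independent evidence. Of the 8, 1 gave no value in any day 7 tumor-bearing mouse, and each gave values in some mice of every other group. Single mice lacked values: Itgb2l had one in 16 of the 28 mice, Prtn3 in 20, Ela2 in 23 and Camp in 26. At day 7 the median log2 sum was -2.21 in tumor-bearing mice (-2.34 to -2.09) and -2.86 in healthy mice (-3.15 to -2.19). At day 14 it was -1.53 in tumor-bearing mice (-2.56 to -0.44) and -3.56 in healthy mice (-4.41 to -2.25), and at day 21 it was -0.34 (-0.41 to -0.10) and -2.48 (-2.62 to -2.05). The sum of 4 monocyte and macrophage markers, which can also make calprotectin, varied less: its medians were 2.29, 2.01 and 1.98 in tumor-bearing mice at days 7, 14 and 21, and 2.04, 1.96 and 1.71 in healthy mice. None of the 4 passed in any contrast of conditions, a count near the background of 0% to 2.5% of all assays called.

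The sum of 2 epithelial and tumor cell markers ran from -7.86 to -3.63 in tumor-bearing mice and from -7.62 to -2.69 in healthy mice. Of 4 T cell markers, 0 passed at any day or over the mean, a count near the background of 0% to 2.5% of all assays called. None had a positive difference. Their median differences were -0.48, -0.63, -0.51 and -0.52, against 0.03, -0.08, 0.00 and -0.05 over all assays tested. Their median sum was -4.65, -4.75 and -4.64 in tumor-bearing mice at days 7, 14 and 21, against -4.45, -4.12 and -3.60 in healthy mice. What part neutrophils or the other cell types have in the calprotectin differences was not tested.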

How the data were processed

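Total RNA of each scaffold was reverse transcribed and run by TaqMan RT-qPCR on the OpenArray Mouse Inflammation Panel, per the labels' protocols. The deposited raw values are quantification cycles (a score, lower for more template) and the deposited normalized values are linear ratios, per the file headers. The 5 reference transcripts were inferred from the values, and the software that called cycles is not given in the sources used here. The authors' fold table was only set beside the estimates.

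Log2 of the authors' normalized ratios was fitted with limma 3.58.1 (R 4.3.3, statmod 1.5.0) over all 28 samples, with 1 mean per day and condition and the panel as a random block (correlation 0.054). An assay entered with values in at least 50% of the samples of a group (608 assays) and was tested with at least 2 values in each group compared. P-values were adjusted by Benjamini-Hochberg over all assays of a contrast, with 0.05 as the threshold. The fit was tested on simulated data. Ratios and assay differences were tested by exact permutation and correlations by exact or 100000-resample permutation (scipy 1.17.1). Of 18144 reactions, 12.4% gave no Cq and were left missing. Mice had 475 to 587 assays with a value. No counts exist, and the number of mice limits the precision.

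Promoters and gene positions came from RefSeq tables of GRCm38.p6. Named genes were the members, the 8 assays most correlated with them, and list members past the threshold or, failing that, the 2 with the smallest p per list and contrast. The members, lists and tests were chosen with earlier results of these data known. Alternatives were other panel blocks, normalizations, filters, priors and omitted mice or panels.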

Additional observations from a re-analysis of the deposited data

Results flagged for a closer look

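In day 14 healthy replicate 14 the 63-base S100a8 assay over S100a9 was 2.87 on the log2 scale, against -0.14 to 0.66 in the other 7 mice of its group. The gap to the nearest mouse was 0.736 of the group's range, above Dixon's critical value for 8 samples. Among 14 such comparisons of a sample with its group this was the 1 that stood out, and chance alone marks about 1 in 20. The same mouse lacked a value for the 131-base S100a8 assay.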

How the results depend on the processing

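Of 1159 alternative values for 58 results, 1153 stayed on their side of the threshold or moved by less than the spread, though estimates that passed no test could change sign. The tumor-bearing step from day 7 to day 14 was -0.33 by the 131-base and -0.28 by the 63-base assay without panels E and F. Setting missing reactions to the largest Cq (39.699) moved the day 14 difference of the 131-base S100a8 assay to 5.0, since 1 healthy reaction was missing. Leaving out single mice gave 1.96 to 2.51 for the healthy step from day 14 to day 21 by the 131-base assay, with an adjusted p under the threshold at 2.46 and 2.51 without replicates 12 and 13. For S100a9 the range was 1.44 to 1.97, with the same at 1.95 and 1.97 without the same mice. This step uses day 14 values that entered the choice of the genes and is no independent test. Adjusted p over all alternatives ran from 0.043 to 0.481 for the 131-base assay and from 0.043 to 0.306 for S100a9. The correlation in day 14 healthy mice was 0.52 with the 63-base assay alone (adjusted permutation p = 0.186). With 1 mouse left out, the day 14 tumor-bearing minus healthy difference ran from 1.92 to 2.40 by the 131-base assay, from 1.60 to 2.06 by the 63-base assay and from 1.90 to 2.31 for S100a9. Without panels E and F, an alternative chosen after seeing the data, these differences were 1.91, 1.64 and 1.81. Omitting the calprotectin reactions of replicate 14, or removing panel means from the correlations, was also chosen after seeing the data. No paired analysis was possible because each of the 28 mice has a replicate number of its own, shared by no 2 groups; mice were matched by day and panel instead, and panel was also fitted as a fixed block. With 3 mice a condition, the 95% interval of the day 21 difference ran from 0.47 to 2.92 for S100a9, and no alternative made a calprotectin assay pass at day 21 (adjusted p of 0.145 or more).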
